A study of Mus musculus with 11 samples.

Results

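The epidermal growth factor receptor family (ErbB family) and the ligands that switch it on were examined in pancreas and epididymal adipose tissue of mice with obesity-related alcohol-induced acute pancreatitis (OA-AP). The 10 genes were chosen by name from the count tables and comprise the receptors Egfr, Erbb2, Erbb3 and Erbb4, the ligands Ereg, Areg, Hbegf, Tgfa and Btc, and the feedback inhibitor Errfi1. All 10 were among the 45260 genes that the pancreas and adipose tables have in common. RNA had been sequenced from 11 libraries, of which 2 were control pancreas, 3 OA-AP pancreas, 3 control adipose and 3 OA-AP adipose. All mice were male C57BL/6J, and the labels give an age of 16 weeks. Control mice were wild type and lean, ate normal chow for 12 weeks and were injected with saline. OA-AP mice, labelled Model, were wild type too, received a diet rich in fat over the same 12 weeks and were given ethanol at 2 g/kg by intraperitoneal injection, repeated after 1 h. Diet, ethanol and pancreatitis differed together, so their effects cannot be told apart, and no group with the diet alone or ethanol alone was analysed here.

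Libraries held 14188832 to 17238919 counts on genes in the pancreas and 20825177 to 27928097 in adipose tissue. Levels are in CPM, the count relative to the TMM-scaled depth of the library, set within each tissue. TMM factors were 0.70 to 0.79 in control pancreas and 1.11 to 1.32 in OA-AP pancreas. The 14 acinar marker genes took 51.0% and 52.4% of control pancreas counts and 40.4% to 42.3% of OA-AP counts, and 9 of them fell while 1 rose. Adipocyte markers summed to 42061 to 45622 CPM in control and 35990 to 44844 CPM in OA-AP adipose tissue (1 of 9 rose, 2 fell). Adipose control replicate 2 stood apart, with 6072 CPM of acinar markers against 8.82 to 17.5 CPM in the other adipose libraries. In whole tissue, fewer cells of a type and less RNA per cell cannot be told apart. A gene was called changed at an adjusted p under 0.05 with a fold change of at least 1.5, by edgeR's quasi-likelihood test with Benjamini-Hochberg adjustment over all genes tested.

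ErbB receptors are tyrosine kinases of the cell surface. Ligands such as TGF-alpha, amphiregulin, epiregulin, HB-EGF and betacellulin are made as membrane-bound precursors, are cut free by proteases of the ADAM family and bring receptors together in pairs, which then signal through the ERK and PI3K cascades. ErbB2 has no known ligand of its own and ErbB3 has a weak kinase, so that both act chiefly as partners, while ERRFI1 (MIG6) is induced by the pathway and binds the activated kinase to shut it down. In the pancreas, EGF receptor signalling is known for its part in acinar-to-ductal metaplasia.

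On the mouse genome (GRCm38), among the receptors, Egfr (ENSMUSG00000020122) is at chr11:16752203-16918158 on the plus strand and Erbb2 (ENSMUSG00000062312) at chr11:98412470-98437716 on the plus strand. Erbb3 (ENSMUSG00000018166) is at chr10:128567523-128589652 and Erbb4 (ENSMUSG00000062209) at chr1:68032186-69108059, both on the minus strand. The ligand genes Ereg (ENSMUSG00000029377, chr5:91074622-91093646, plus strand), Areg (ENSMUSG00000029378, chr5:91139599-91148432, plus strand) and Btc (ENSMUSG00000082361, chr5:91357261-91402994, minus strand) are neighbours, with 45952 bases between Ereg and Areg and 208828 between Areg and Btc. With the ligand gene Epgn, which precedes Ereg by 39406 bases, they form a row of 375531 bases that holds 0 other protein-coding genes. Tgfa (ENSMUSG00000029999) is at chr6:86195223-86275719 on the plus strand, and Errfi1 (ENSMUSG00000028967) at chr4:150853919-150868892 on the plus strand. Exons of Erbb2 and of its opposite neighbour Mien1 share 9 bases, and an Ereg exon shares 152 bases with the antisense gene Gm19610, which held at most 2 counts in any library. An exon of Tgfa overlaps the antisense gene Gm43917 likewise, with at most 2 counts in any pancreas library. The strand setting of the counting is not given in the sources used here, so reads in these overlaps cannot be assigned with certainty.

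RefSeq (GRCm38.p6) promoter entries matched 7 of the 10 genes in 8 windows of 250 bases before a transcript start. Ereg and Erbb3 had no entry and Hbegf was not read, so the motif counts below do not cover these genes. The sequences of Areg and of the inner Errfi1 start are shown because both hold a complete cyclic AMP response element (CRE) and a TATA box, and that of Btc because it comes from the same gene row as Areg and holds neither. Capitals mark matches, on either strand, to the CRE (TGACGTCA), its core (TGACG), the TATA box (TATAAA) and the Sp1 box (GGGCGG).
Areg, chr5:91139349-91139598, plus strand: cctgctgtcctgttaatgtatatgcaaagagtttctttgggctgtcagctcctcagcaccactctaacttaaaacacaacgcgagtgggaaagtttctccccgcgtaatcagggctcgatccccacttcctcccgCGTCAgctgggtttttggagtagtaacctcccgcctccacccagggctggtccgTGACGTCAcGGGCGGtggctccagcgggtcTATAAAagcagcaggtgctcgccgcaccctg
Errfi1, inner start, chr4:150854820-150855069, plus strand: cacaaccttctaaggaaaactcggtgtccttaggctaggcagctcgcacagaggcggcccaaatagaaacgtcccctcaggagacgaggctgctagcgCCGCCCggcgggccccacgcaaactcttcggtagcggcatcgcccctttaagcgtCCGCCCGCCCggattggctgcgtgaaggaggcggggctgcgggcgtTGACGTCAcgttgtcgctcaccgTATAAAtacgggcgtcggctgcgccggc
Btc, chr5:91402995-91403244, minus strand: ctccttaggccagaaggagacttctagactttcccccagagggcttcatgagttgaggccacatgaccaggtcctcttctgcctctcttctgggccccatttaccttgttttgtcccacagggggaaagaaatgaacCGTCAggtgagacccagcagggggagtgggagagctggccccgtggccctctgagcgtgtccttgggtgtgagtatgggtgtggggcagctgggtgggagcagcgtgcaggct
In Areg the CRE spans bases 61 to 54 before the start and the TATA box bases 31 to 26. In Errfi1 the CRE spans bases 51 to 44 and the TATA box bases 28 to 23. Of 32851 mouse windows of the same length, 1.55% held the CRE, 12.4% the TATA box and 0.119% both, against 2 of the 8 windows read here for each of the 3. No other pair of motifs was counted. The Areg and Errfi1 sequences were chosen for holding this pair, so its count is a description and not a test. The CRE core, which every full CRE contains on both strands, was in 17.8% of all windows and 4 of 8 here, and the Sp1 box in 32.7% of all windows and 4 of 8 here. The outer Errfi1 start and Erbb4 had no match to any of these motifs. The AP-1 motif (TGANTCA), the NF-kB motif and the SRF CArG box were in 6.75%, 7.25% and 1.47% of all windows and in 0 of 8 here, which says only that these letters are not in these windows. Counts per gene do not tell which Errfi1 start was used.

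**Figure D1:**
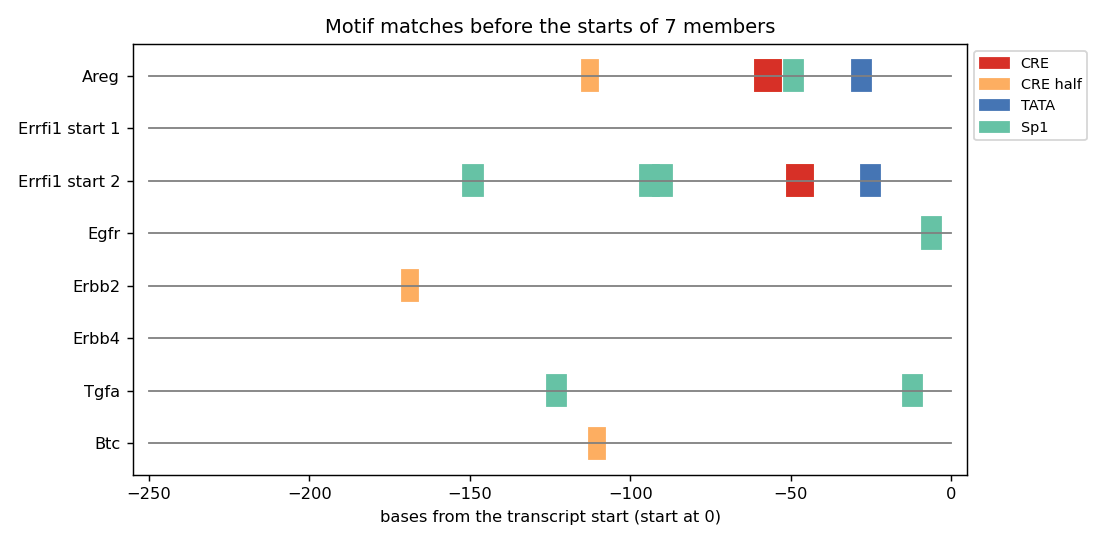
Positions of motif matches (coloured boxes) in the 250 bases before the transcript starts of 7 genes, with bases from the start on the x axis and 1 line per start. Areg and the inner start of Errfi1 each have a CRE at 61 to 44 bases and a TATA box at 31 to 23 bases before the start.

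In the OA-AP pancreas Egfr, Erbb2 and Erbb3 rose, as did Errfi1 and Hbegf, while Erbb4 held too few counts to test. Erbb3 was the most abundant receptor per length in controls and had the largest log2 fold change of the 3. Of the 10 genes, 7 could be tested, 5 rose, 0 fell and 2 were not called, where 29.8% of all genes tested were called in either direction, 16.2% up and 13.5% down. Control and OA-AP libraries did not overlap for 7 of the 7 tested genes, as held for 62.3% of all genes tested. The median log2 fold change of the 7 was 2.10, against 0.04 over all genes tested. Hbegf, with 8 and 9 counts in controls, passed the filter through its OA-AP counts, so the filter bears on the direction of its call.

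Erbb3, the receptor for neuregulins, stood at 19.4 and 16.9 CPM in control pancreas and at 204, 180 and 251 CPM in OA-AP pancreas. All 3 OA-AP libraries were far above both controls, with a log2 fold change of 3.54 (SE 0.20, adjusted p = 4.64e-05, edgeR). It had the 22nd smallest p-value of 12884 genes tested.

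Erbb2, the preferred partner of the other receptors, was at 3.43 and 3.69 CPM in controls and at 18.2, 16.6 and 12.97 CPM in OA-AP pancreas. The lowest OA-AP library was well above the higher control, and the log2 fold change was 2.16 (SE 0.22, adjusted p = 0.00044). Egfr, the receptor for all 5 ligands studied here, was at 7.12 and 8.87 CPM in controls and at 24.5, 22.5 and 24.3 CPM in OA-AP pancreas. Its OA-AP libraries lay close together, and the log2 fold change was 1.57 (SE 0.16, adjusted p = 0.000464). Erbb4 held 6 and 2 counts in control libraries and 7, 2 and 3 in OA-AP libraries, too few to test.

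Errfi1 showed the largest log2 fold change of the 7 tested genes in the pancreas. It was at 15.4 and 10.97 CPM in controls and at 206, 146 and 398 CPM in OA-AP pancreas, a log2 fold change of 4.24 (SE 0.54, adjusted p = 0.00324). OA-AP replicate 3 was the highest, and without it the log2 fold change was 3.68 with an adjusted p of 4.44e-07. That library also held the most neutrophil marker transcripts, 97.2 CPM summed over 11 genes against 3.26 and 14.2 CPM in the other OA-AP libraries and 1.20 and 1.99 CPM in controls, although 0 of the 6 tested neutrophil markers were called and Mpo and Elane were near 0.

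The pancreatic ligands moved less evenly. Hbegf (ENSMUSG00000024486, chr18:36504929-36515805, minus strand), whose product binds Egfr and Erbb4, was at 0.686 and 0.897 CPM in controls and at 1.52, 3.15 and 5.54 CPM in OA-AP pancreas. The groups did not overlap, but OA-AP libraries differed several-fold, with replicate 3 again highest, and the log2 fold change was 2.10 (SE 0.62, adjusted p = 0.0348). Its call was lost without either control, with adjusted p of 0.202 without replicate 1 and 0.156 without replicate 2, where the lone control left is assumed to vary like the other group. Without OA-AP replicate 3 the log2 fold change was 1.51 (adjusted p = 0.0243).

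Tgfa, a ligand of Egfr, was at 4.72 and 6.38 CPM in control pancreas and at 6.98, 11.4 and 10.4 CPM in OA-AP pancreas. The lowest OA-AP library was barely above the higher control, and the log2 fold change of 0.79 (SE 0.27, adjusted p = 0.0552) missed the threshold, which it passed under 6 of 14 other settings. Btc, which binds Egfr and Erbb4, stood at 1.37 and 1.89 CPM in controls and at 0.367, 1.14 and 0.261 CPM in OA-AP pancreas. Its log2 fold change of -1.47 (SE 0.65, adjusted p = 0.117) was not called, but without OA-AP replicate 2, the highest of its group, it was -2.34 (adjusted p = 0.0154).

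Ereg and Areg were at the limit of detection in the pancreas. Ereg had 0 counts in all 5 libraries, and Areg had 1 count in OA-AP replicate 1 and 0 in the other 4. A count of 0 allows up to 3 counts, which is 0.157 to 0.299 CPM in these libraries, a limit that covers counting error only.

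Markers of other cells of the pancreas moved in their own ways. The ductal list summed to 226 and 230 CPM in controls and to 117 to 183 CPM in OA-AP pancreas (2 of 6 tested fell, 0 rose), and the islet list to 987 and 1207 CPM in controls and to 1363 to 1650 CPM in OA-AP pancreas (2 of 8 rose, 0 fell). The adipocyte list summed to 47.0 and 61.8 CPM in controls and to 135 to 271 CPM in OA-AP pancreas (2 of 3 tested rose, 0 fell), but its defining gene Adipoq was near 0 and Retn at 0 in all 5 libraries. The macrophage list summed to 42.5 and 84.8 CPM in controls and to 78.4 to 130 CPM in OA-AP pancreas (1 of 10 tested fell, 0 rose). The part of these and of the acinar difference in the receptor and Errfi1 values was not tested.

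**Figure D2:**
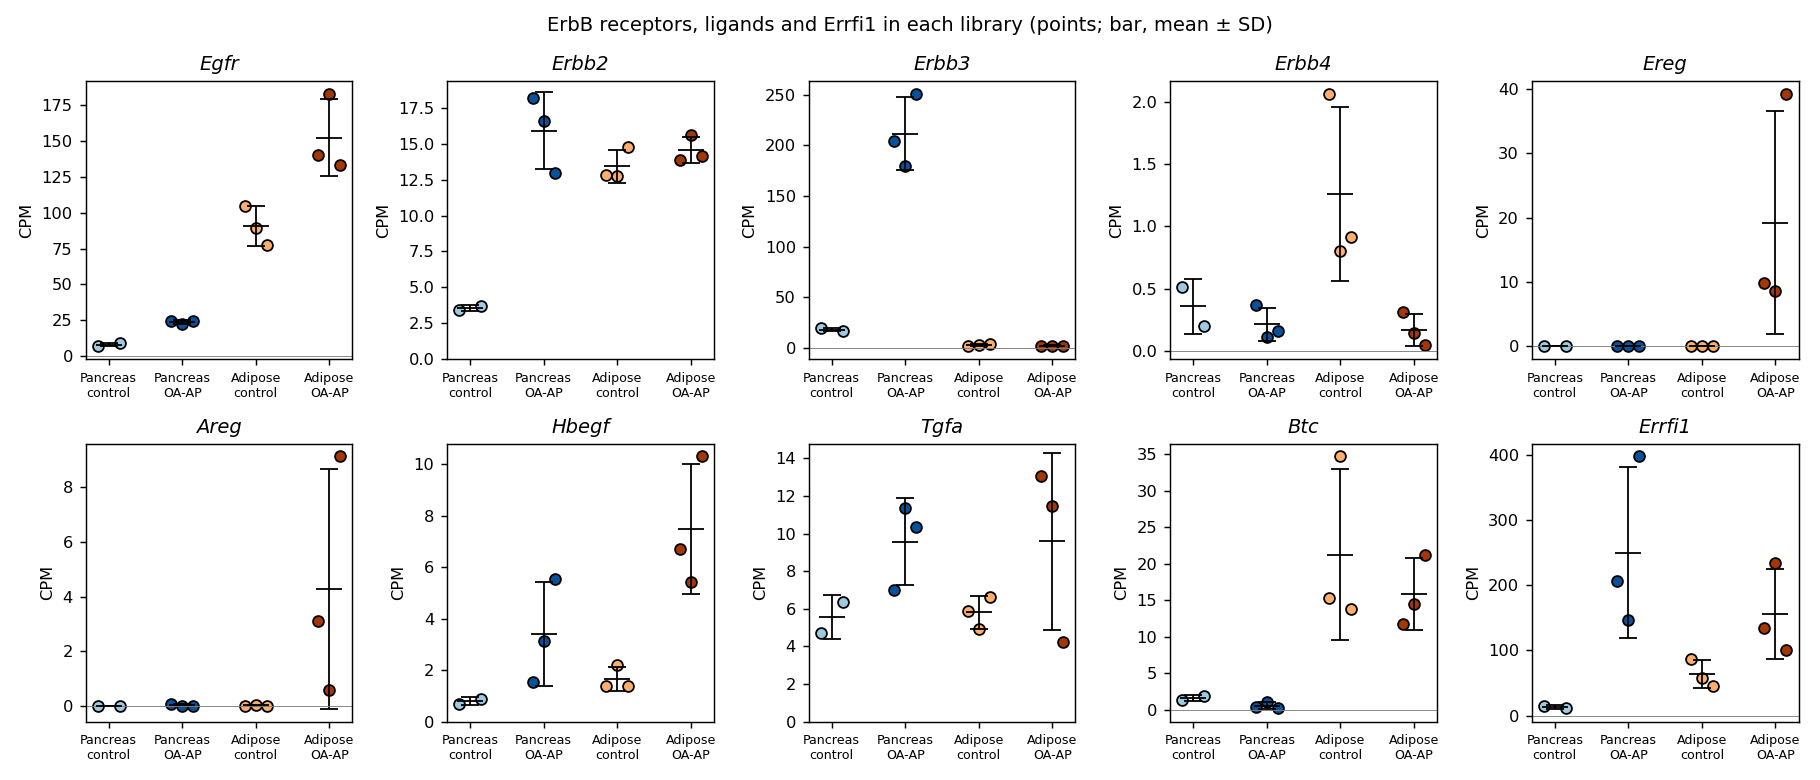
CPM (y axes, linear, each with its own range) of the 10 genes in the 11 libraries by tissue and group (points), with mean and SD (bars). Erbb3 and Errfi1 in OA-AP pancreas stand above control pancreas in all 3 libraries, and Ereg and Areg are above 0.5 CPM in no group other than OA-AP adipose tissue.

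In OA-AP adipose tissue the ligands Ereg, Areg and Hbegf rose, as did Egfr and Errfi1, and Erbb4 fell. All 10 genes passed the filter, 5 rose, 1 fell and 4 were not called, where 25.1% of all genes tested were called, 12.1% up and 13% down. The groups did not overlap for 6 of the 10 genes and for 52.4% of all genes tested. The median log2 fold change was 0.73 (all genes tested, -0.01). Ereg and Areg passed the filter through their OA-AP counts alone and Erbb4 through its control counts alone. The direction of these changes was thus largely set by the filter, and they add to the calls, the non-overlap and the median. With at least 10 counts in every sample, a filter that left them untested, 3 genes were called.

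Ereg, which encodes epiregulin, a ligand of Egfr and Erbb4, had 2, 0 and 0 counts in control adipose tissue and 189, 179 and 778 counts in OA-AP tissue. The OA-AP libraries thus stood at 9.80, 8.61 and 39.3 CPM, with replicate 3 several times above the others (adjusted p = 0.00216, edgeR). Against a floor of 3 counts per control library, even the library nearest to the floor was at least 76.0-fold higher. Without replicate 3 the gene was still called (adjusted p = 0.00135).

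Areg, which encodes the Egfr ligand amphiregulin, had 0, 1 and 0 counts in controls and 60, 12 and 181 counts in OA-AP adipose tissue, or 3.11, 0.577 and 9.14 CPM. Every OA-AP library was above every control, with replicate 2 low and replicate 3 high. The OA-AP mean was at least 37.7-fold higher than the floor of 3 counts per control library, the lowest library at least 5.09-fold (adjusted p = 0.00927). Ereg and Areg followed no fixed proportion: per base of transcript, Ereg was 0.927, 4.39 and 1.27 times Areg in OA-AP replicates 1, 2 and 3.

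The third member of the chromosome 5 row did not rise. Btc was the most abundant of the 5 ligands in control adipose tissue, at 15.3, 34.7 and 13.8 CPM, and was at 11.8, 14.5 and 21.3 CPM in OA-AP tissue. The groups overlapped (log2 fold change -0.42, SE 0.40, adjusted p = 0.442), and without control replicate 2, the highest library and the one with acinar transcripts, the log2 fold change was 0.14. Epgn, the fourth gene of the row, had 1, 1 and 1 counts in controls and 6, 6 and 9 in OA-AP tissue, too few to test.

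Hbegf was at 1.40, 2.20 and 1.40 CPM in control and at 6.69, 5.43 and 10.3 CPM in OA-AP adipose tissue. The lowest OA-AP library was well above the highest control, with a log2 fold change of 2.17 (SE 0.31, adjusted p = 0.00274). Tgfa was at 5.90, 4.92 and 6.64 CPM in controls and at 13.1, 11.4 and 4.24 CPM in OA-AP tissue. Replicate 3, which was highest for Ereg, Areg and Hbegf, was the lowest of all 6 libraries for Tgfa. The log2 fold change of Tgfa was 0.72 (SE 0.39, adjusted p = 0.190), and without replicate 3 it was 1.08 (adjusted p = 0.0117).

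Among the adipose receptors, Egfr was at 105, 89.4 and 77.2 CPM in controls and at 140, 183 and 134 CPM in OA-AP tissue. All OA-AP libraries were above all controls, with a log2 fold change of 0.75 (SE 0.16, adjusted p = 0.0116). Erbb4 was scarce, with 56, 19 and 27 counts in controls and 6, 3 and 1 in OA-AP tissue, or 2.07, 0.805 and 0.919 CPM against 0.311, 0.144 and 0.0505 CPM. The groups did not overlap, and Erbb4 fell by 2.88 on the log2 scale (SE 0.63, adjusted p = 0.0119).

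Erbb2 and Erbb3, which rose in the pancreas, were not called in adipose tissue. Erbb2 was at 12.8, 12.8 and 14.8 CPM in controls and at 13.9, 15.6 and 14.1 CPM in OA-AP tissue (log2 fold change 0.11, SE 0.12, adjusted p = 0.473). Erbb3 was at 1.99, 2.75 and 4.36 CPM in controls and at 2.38, 2.31 and 1.62 CPM in OA-AP tissue (log2 fold change -0.53, SE 0.33, adjusted p = 0.241). The libraries of both groups overlapped for each gene.

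Errfi1 was at 87.0, 58.1 and 45.8 CPM in control and at 134, 234 and 101 CPM in OA-AP adipose tissue. The groups did not overlap and the log2 fold change was 1.30 (SE 0.36, adjusted p = 0.0308). The call was lost without control replicate 2 (1.25, adjusted p = 0.0854), without control replicate 3 (1.12, adjusted p = 0.0947) without OA-AP replicate 2 (0.89, adjusted p = 0.0525) and with no filter on low counts (1.28, adjusted p = 0.135).

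Marker transcripts of other cells also differed in adipose tissue. Neutrophil markers summed to 9.74 to 16.0 CPM in controls and 145 to 180 CPM in OA-AP tissue, where 5 of 6 tested markers rose and 1 fell, S100a9 from 2.23 to 54.6 CPM on average, while Mpo stayed near 0. Macrophage markers summed to 1101 to 1381 CPM in controls and 1429 to 1915 CPM in OA-AP tissue (5 of 11 rose, 1 fell), and fibroblast markers to 3531 to 4368 and 2100 to 2732 CPM (5 of 8 fell, 0 rose). T and B cell markers summed to 8.78 to 38.2 CPM in controls and 2.02 to 4.34 CPM in OA-AP tissue (4 of 6 tested fell, 0 rose), and mast cell markers to 68.7 to 74.8 and 66.3 to 85.7 CPM (3 of 7 fell, 1 rose). Their part in the changes of Ereg, Areg, Hbegf, Egfr and Erbb4 was not tested.

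**Figure D3:**
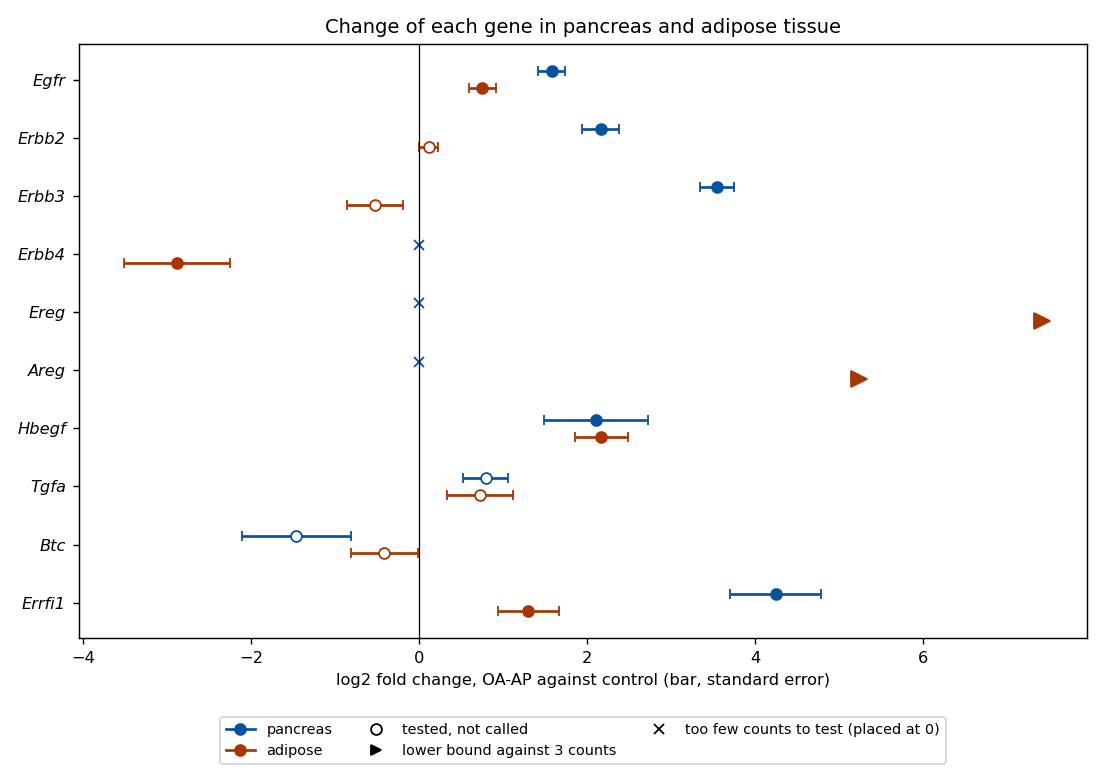
Log2 fold change of OA-AP against control (x axis) with standard error for the 10 genes in pancreas (blue) and adipose tissue (brown), filled where called. Errfi1 and Erbb3 lie furthest right in the pancreas, whereas Ereg and Areg, drawn as lower bounds against 3 counts, lie furthest right in adipose tissue, and crosses at 0 mark genes with too few counts to test.

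Whether the changes differed between the tissues was tested with the tissue by condition term in a fit of all 11 libraries. Compared were the 8 genes with more than 3 counts in at least 1 pancreas library, among them Erbb4 with at most 7. Of these 8, 4 changed more in the pancreas and 0 changed less. Of all 17046 genes tested, 20.6% were called, 10.2% with the higher and 10.4% with the lower change in the pancreas. The pancreas log2 change exceeded the adipose one by 4.09 for Erbb3 (SE 0.39, adjusted p = 7.49e-05), by 2.06 for Erbb2 (SE 0.24, adjusted p = 0.000176) and by 2.95 for Errfi1 (SE 0.67, adjusted p = 0.0117). For Egfr it exceeded it by 0.83 (SE 0.24, adjusted p = 0.0308), a call that was lost in turn without pancreas control replicate 1 (0.69) or 2 (0.98), pancreas OA-AP replicate 1 (0.82) or adipose OA-AP replicate 3 (0.79). The Errfi1 call was lost without pancreas control replicate 2 (2.71) and with no filter (2.94, adjusted p = 0.0501). It was also lost in a fit that pairs same-numbered libraries of the 2 tissues (3.10, adjusted p = 0.0715). Hbegf (-0.04, SE 0.69), Tgfa (0.08, SE 0.55), Btc (-1.05, SE 0.82) and Erbb4 (2.11, SE 1.08) were not called, with standard errors that leave room for sizeable differences. Ereg and Areg were not compared, since they held at most 1 count in any pancreas library.

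The tissues already differed in their receptors in control mice. Erbb3 was higher in control pancreas than in control adipose tissue by 4.54 on the log2 scale (SE 0.29, adjusted p = 9.77e-08) and Egfr was lower, at -1.53 (SE 0.19, adjusted p = 3.05e-05). Tgfa was higher in the pancreas by 1.90 (adjusted p = 0.0023) and Btc lower, at -1.73 (adjusted p = 0.0247), and Erbb2, Erbb4, Hbegf and Errfi1 were not called, where 55.5% of all genes were, 26% higher and 29.4% lower in the pancreas. The counts of each tissue came in a separate table, with 54532 genes for pancreas and 46078 for adipose tissue. A difference in how the tables were counted would appear as a tissue difference, and this was not tested. The values also depend on how unlike tissues are scaled. The joint TMM factors were 0.34 to 0.62 for pancreas and 1.74 to 1.98 for adipose libraries. Scaled by library totals, which shifted the median of all genes by -2.45, Erbb3 stayed higher in the pancreas (2.08) and Egfr and Btc stayed lower (-4.00 and -4.20), but Tgfa turned to -0.58 and was not called. Without adipose control replicate 2 Btc was at -1.23 (adjusted p = 0.0550), and its call was also lost without pancreas control replicate 1 (-1.54) or 2 (-1.98).

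Shares of the receptor transcripts within a library do not depend on scaling, but between tissues they too compare separate tables. Per base of transcript, Erbb3 made up 67.9% ± 4.10 (SD, n = 2) of the 4 receptors in control pancreas and 86.9% ± 2.64 (SD, n = 3) in OA-AP pancreas. Egfr took 16.0% ± 3.09 and then 5.26% ± 0.55, although its own level rose, and Erbb2 took 15.5% ± 1.39 and then 7.77% ± 2.08. In no pancreas library did the shares of Erbb3 or Egfr reach the range of the other group.

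Adipose tissue had the opposite make-up. Egfr made up 71.2% ± 5.43 (SD, n = 3) of the receptors in controls and 80.8% ± 1.60 (SD, n = 3) in OA-AP tissue, and its lowest OA-AP share of 79.8% was above its highest control share of 75.8%. Erbb2 took 23.3% ± 3.56 and 17.0% ± 1.55, Erbb3 4.62% ± 2.14 and 2.11% ± 0.40, and Erbb4 under 1% in both groups. Without length scaling Egfr took 83.4% and 90.0% of receptor counts in adipose tissue, and Erbb3 60.3% and 83.9% in the pancreas.

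The ligand make-up also differed. In control pancreas Tgfa took 55.2% ± 0.10 (SD, n = 2) of the length-scaled ligand counts, Btc 23.3% ± 0.38 and Hbegf 21.6% ± 0.48. These shares rest on 79 and 92 ligand counts per library, with Hbegf at 8 and 9, so the small SDs do not reflect counting error. In OA-AP pancreas Hbegf took 44.4% ± 12.5 (SD, n = 3), Tgfa 50.3% ± 9.42 and Btc 4.49% ± 3.07. The Tgfa share overlapped between groups while those of Hbegf and Btc did not, with Btc at 7, 20 and 5 counts in OA-AP pancreas. In control adipose tissue Btc held 72.0% ± 8.56 (SD, n = 3). In OA-AP adipose tissue the share was spread over Ereg (25.3% ± 8.95), Btc (23.8% ± 7.90), Hbegf (20.8% ± 3.93), Areg (17.9% ± 11.9) and Tgfa (12.2% ± 8.51).

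**Figure D4:**
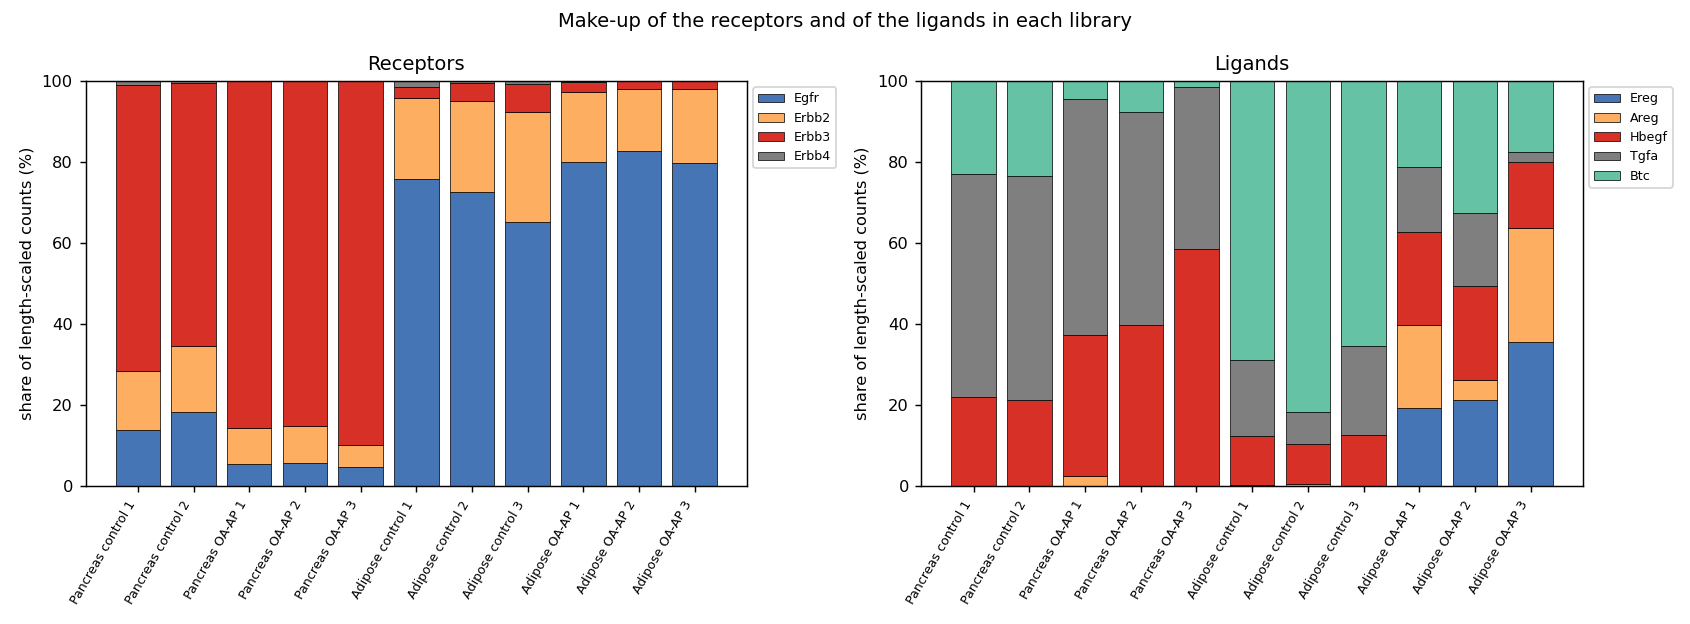
Share (%) of length-scaled counts taken by each receptor (left, of 4) and each ligand (right, of 5) in each library, stacked to 100%. Erbb3 fills 65.0% to 90.0% of each pancreas bar and Egfr 65.2% to 82.7% of each adipose bar, and Ereg and Areg are visible in the OA-AP adipose bars.

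Ordered by level per kilobase of transcript, Errfi1 was first in all 4 groups by its mean. Its range overlapped with that of Erbb3, which came next, in both pancreas groups. Within every pancreas library Errfi1 was above Erbb3, most narrowly in control replicate 2 (3.06 against 2.80 CPM per kilobase). In control pancreas Errfi1 was at 3.69 ± 0.88 and Erbb3 at 3.01 ± 0.30 CPM per kilobase, followed by Tgfa, Egfr and Erbb2, which overlapped in turn, then by Btc and Hbegf, which overlapped too. In OA-AP pancreas Errfi1 (69.8 ± 36.7) and Erbb3 (35.1 ± 6.03) were followed by Erbb2 (3.06 ± 0.52), Egfr (2.10 ± 0.10) and Tgfa (1.48 ± 0.35) with no overlap between neighbours from Erbb3 to Tgfa. In control adipose tissue Errfi1 (17.8 ± 5.90) stood above Egfr (7.99 ± 1.22) and Btc (4.70 ± 2.58), the last of which overlapped Egfr. In OA-AP adipose tissue Errfi1 (43.7 ± 19.3) and Egfr (13.4 ± 2.37) were followed by Ereg (4.66 ± 4.21), Areg (3.52 ± 3.62), Btc (3.51 ± 1.08), Hbegf (3.15 ± 1.07) and Erbb2 (2.79 ± 0.17), and neighbours among these 5 overlapped.

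The ratio of the inhibitor to the receptors differed between the groups in the pancreas. Per base of transcript, Errfi1 stood at 6.86 and 3.91 times Egfr in control pancreas and at 26.6, 20.5 and 51.7 times in OA-AP pancreas, so the groups did not overlap. Against all 4 receptors together it stood at 0.947 and 0.711 in controls and at 1.46, 1.16 and 2.40 in OA-AP pancreas. In adipose tissue Errfi1 was 2.62, 2.05 and 1.88 times Egfr in controls and 3.03, 4.04 and 2.40 times in OA-AP tissue, with overlap.

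The other genes of the pathway were taken from lists by function. Their counts stand beside the shares of all genes tested, of which 16.2% rose and 13.5% fell in the pancreas and 12.1% rose and 13% fell in adipose tissue, and their medians beside those of all genes tested, 0.04 and -0.01. Of the 6 other ErbB ligands, 1 could be tested in the pancreas and 3 in adipose tissue, and those called had fallen. Egf, the founding ligand of the family, stood at 45.7 ± 2.53 CPM (SD, n = 2) in control and 14.6 ± 2.16 CPM (SD, n = 3) in OA-AP pancreas (log2 fold change -1.64, SE 0.16, adjusted p = 0.000316), in the direction opposite to its receptor Egfr. In adipose tissue Egf (-0.99, adjusted p = 0.0119) and the neuregulin Nrg2 (-2.18, adjusted p = 0.0138) fell, and Nrg4, the most abundant neuregulin there, was at 103 and 69.6 CPM on average and was not called. The Erbb3 and Erbb4 ligand Nrg1 had 1, 0 and 0 counts in control and 25, 4 and 26 in OA-AP adipose tissue and did not pass the filter. In the pancreas the neuregulins held at most 9 counts in any library.

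Among 11 genes of ligand shedding, 5 of 9 tested rose in the pancreas and 0 fell (all genes, 16.2% and 13.5%), including the protease gene Adam9 (1.65, adjusted p = 0.000951) and Rhbdf1 (0.79, adjusted p = 0.00558), whose product helps ADAM17 to mature. In adipose tissue 2 of 11 rose and 0 fell (all genes, 12.1% and 13%), the rise being near the share of all genes, and the 2 were the proteases Adam8 (2.82, adjusted p = 0.000179) and Adam9 (1.09, adjusted p = 0.00155). Medians of the list were 0.73 and 0.31.

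Among 24 adaptor and ERK cascade genes, 10 of 22 tested rose in the pancreas and 3 of 22 in adipose tissue, and 0 fell in either. The rise of 3 of 22 in adipose tissue was near the 12.1% of all genes that rose there, against 16.2% of all genes in the pancreas. Pancreatic Grb7, an adaptor that binds ErbB2 and ErbB3, rose by 1.69 (SE 0.14, adjusted p = 0.000206) and the phosphatase gene Ptpn11 by 0.97 (adjusted p = 0.00331). In adipose tissue the small GTPase genes Nras (0.82, adjusted p = 0.00162) and Hras (0.70, adjusted p = 0.0066) rose. Medians of the list were 0.61 and 0.12.

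Of 22 genes for receptor endocytosis and inhibition, 4 of 20 tested rose and 1 fell in the pancreas, and 5 of 19 rose and 2 fell in adipose tissue. The pancreas count was near the shares of all genes, 16.2% up and 13.5% down, and in adipose tissue these were 12.1% and 13%. The ubiquitin ligase gene Cblb (1.82, adjusted p = 0.000437) and the phosphatase gene Ptpn2 (2.29, adjusted p = 0.00358) rose in the pancreas, and Lrig2 fell (-0.70, adjusted p = 0.0236). In adipose tissue the phosphatase genes Ptpn2 (1.19, adjusted p = 0.000757) and Ptpn1 (1.34, adjusted p = 0.000767) rose, and Lrig1, whose product lowers the level of ErbB receptors, fell from 74.7 to 28.5 CPM on average (-1.39, adjusted p = 0.00106), as did Lrig3 (-0.73, adjusted p = 0.0284). Medians of the list were 0.38 and 0.11.

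Of 16 genes that respond to ERK, 7 of 15 tested rose and 1 fell in the pancreas, and 12 of 16 rose and 0 fell in adipose tissue, where 16.2% of all genes rose and 13.5% fell in the pancreas and 12.1% rose and 13% fell in adipose tissue. In the pancreas the feedback inhibitor Spred2 (1.40, adjusted p = 0.00573) and the transcription factor Etv5 (1.58, adjusted p = 0.0164) rose and Myc fell (-0.74, adjusted p = 0.00652). In adipose tissue the AP-1 subunit Fosl1 rose from 4.39 to 50.4 CPM on average (3.52, SE 0.33, adjusted p = 0.000825) and Ier3 from 10.1 to 129 CPM (3.67, SE 0.35, adjusted p = 0.000934). Medians of the list were 1.40 and 1.28. These genes also respond to other inputs.

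**Figure D5:**
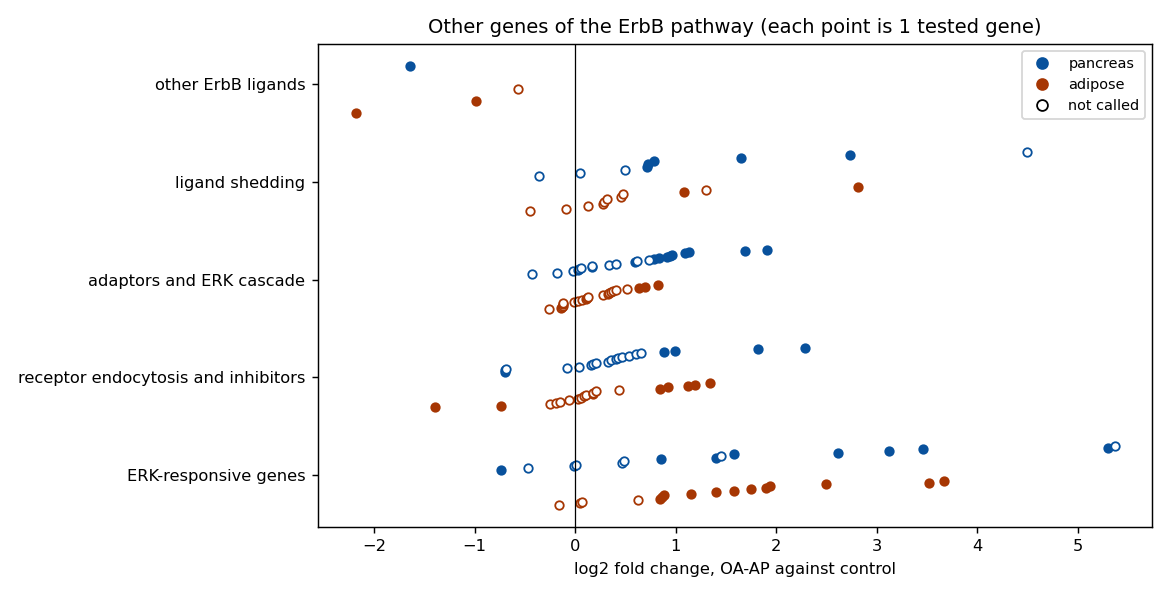
Log2 fold change of OA-AP against control (x axis) for each tested gene of 5 pathway lists (rows) in pancreas (blue) and adipose tissue (brown), filled where called, with a vertical offset within rows only to separate points. The ERK-responsive list has the highest median in both tissues, 1.40 and 1.28.

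As a description, the genes whose log2 CPM followed each gene most closely over the 11 libraries, each tissue centred on its own mean, were sought among 11395 genes. The closest were Slc7a6, Acer2 and Clint1 to Egfr (r of 0.98 each), Ppfia1, Plcb3 and Fxr2 to Erbb2 (0.99 each) and Supt4a, Anapc7 and Aaed1 to Erbb3 (0.99, 0.98 and 0.98). To the ligands they were Pttg1ip, Fbxl5 and Bmp1 for Ereg (0.98 each), Copb2, Ppid and Heatr5a for Areg (0.98, 0.96 and 0.96) and Hmox1, Ddx39 and Ssu72 for Hbegf (0.99, 0.98 and 0.98). For Errfi1 they were Atp6v0e, Foxp4 and Asb6 (0.99 each). Tgfa, Btc and Erbb4 had no gene above 0.96, their closest being Klf9 (0.88), Ifit2 (0.93) and N4bp2 (0.96). All these libraries share the control and OA-AP groups, and those of 1 tissue share a table, so any gene with a like group difference scores high.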

How the data were processed

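RNA sequencing counts of 11 libraries from pancreas and epididymal adipose tissue were analysed. Per the submitters' processing notes and the methods, the authors trimmed reads with Trim Galore (0.6.6), checked their quality with fastp (0.20.1), aligned them to GRCm38 with STAR and deposited whole-number counts per gene from featureCounts (2.0.1) without normalization. The strand setting and annotation release are not given in the sources used here.

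Samples were grouped by their titles. Each tissue was filtered with filterByExpr, scaled with TMM and fitted with edgeR (4.0.16, R 4.3.3) by a robust quasi-likelihood test, and the tissue by condition and control tissue comparisons used 1 fit of all libraries. Standard errors were derived from the fold change and its F statistic. The scripts were tested on simulated data. Alternatives were DESeq2 (1.42.0), other scalings, filters and fold thresholds, a replicate block and each library left out. Per-length values used the gene length deposited with the pancreas counts. Log2 CPM for the likeness of genes used a prior count of 2 and genes with a mean of at least 1.

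The genes and lists were chosen with earlier results of these data known. From each list the 2 called genes with the smallest p per tissue and direction are named, besides other ligands singled out after their values were seen. Same-numbered libraries did not deviate together (r of -0.16 to 0.09), which does not settle if those of pancreas and adipose tissue share a mouse. Replicates differed by more than sampling noise (chi-square per degree of freedom of at least 7.56), and the labels do not say how separate they are, so p-values measure the spread between these samples.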

Additional observations from a re-analysis of the deposited data

Results flagged for a closer look

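The change between OA-AP and control differed between pancreas and adipose tissue, by the test of the tissue by condition term, for 4 of the 8 genes compared. Among the 8, Erbb4 held at most 7 counts in any pancreas library. The log2 change was greater in the pancreas by 0.83 for Egfr (adjusted p = 0.0308, edgeR), 2.06 for Erbb2 (adjusted p = 0.000176), 4.09 for Erbb3 (adjusted p = 7.49e-05) and 2.95 for Errfi1 (adjusted p = 0.0117). The Egfr call was lost in 4 fits with 1 library left out (adjusted p of 0.0524 to 0.154), and the Errfi1 call without pancreas control replicate 2 (adjusted p = 0.0656), with no filter (0.0501) and with the replicate block (0.0715). In groups of this size no test for a single outlying library was made.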

How the results depend on the processing

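Of 499 recomputed fold changes and differences of the 10 genes, 448 kept their direction and their side of the threshold. With the sign kept, 17 lost the call and 9 gained one. Another 25 changed sign, none of them from one call to the opposite call. Among these sign changes, library totals brought calls for Erbb2, Erbb4 and Hbegf between control tissues and ended that of Tgfa. Erbb2, Erbb3, Egfr and Errfi1 in the pancreas and Erbb4, Ereg, Areg and Hbegf in adipose tissue were called under every alternative that gave a value. Genes called numbered 3 in adipose tissue with at least 10 counts in every sample, a filter that left Erbb4, Ereg and Areg untested, and 7 between control tissues with library totals. With 1 library left out, calls numbered 4 to 6 in the pancreas, 5 to 7 in adipose tissue, 2 to 4 for tissue by condition, lowest without pancreas control replicate 2, and 3 to 4 between control tissues. Library totals turned Erbb2 in adipose tissue to -0.037, the tissue difference of the change of Hbegf to 0.75, and, between control tissues, Erbb2 to -2.41, Erbb4 to -2.25, Hbegf to -1.56 and Tgfa to -0.58. Between control tissues Erbb2 was also at -0.057 with no filter and -0.093 with at least 10 counts in every sample. With 1 library left out, signs changed within ranges of -0.68 to 0.14 for Btc in adipose tissue, -0.22 to 0.40 for Tgfa and -0.59 to 0.32 for Hbegf in the tissue difference of changes, and -0.036 to 0.079 for Erbb2 and -0.72 to 0.67 for Erbb4 between control tissues. The cause was not tested.

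It is not known if pancreas and adipose libraries with equal replicate numbers came from the same mouse. Their deviations were hardly correlated (r of -0.012 to 0.090), which cannot decide it, as each was taken from the mean of a small group. The main tissue by condition fit did not pair them. In a fit that paired them, Errfi1 lost the call for the tissue difference (3.10, adjusted p = 0.0715, edgeR), and Erbb4 between control tissues was at -0.030. Over all genes this pairing gave 2156 calls for tissue by condition against 3507 without it. The replicate block within the pancreas joined control and OA-AP libraries of equal number, which are different mice, so it does not bear on this question. OA-AP replicate 3 had no control partner there, and Tgfa was called (0.71, adjusted p = 0.0180, edgeR).

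Calls over all genes were 3834 in the pancreas and 3981 in adipose tissue, and 2464 and 2228 at a fold change of 2. They were 1495 to 4265 in the pancreas and 2332 to 3654 for tissue by condition with 1 library left out. Library totals gave 6349 in the pancreas (92.0% up against 54.5%, with the median of all genes shifted by 0.71), 6527 for tissue by condition (94.3% higher in the pancreas against 49.4%, shift 0.82) and 15368 between control tissues (7.42% higher against 46.9%), and 32.1% up against 48.1% in adipose tissue (shift -0.15). The filter of at least 10 counts gave 5808 calls between control tissues against 9454. Low counts limit Erbb4, Ereg and Areg in the pancreas and Erbb4 and Areg in adipose tissue.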
